A study of Mus musculus with 16 samples.

Results

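Histone H2B monoubiquitylation (H2Bub1) and RNA polymerase II (Pol II) were mapped by ChIP-seq in wild-type (WT) mouse embryonic stem cells (mESCs), and the marks are set side by side here for each protein-coding gene. The libraries used are the 2 of the 16 samples of the series that hold H2Bub1 and Pol II from these cells, and the units described are the 21938 protein-coding genes of the GENCODE M21 annotation on the 21 assembled chromosomes of mm10. For each gene the strongest fold enrichment of any Pol II peak within 1000 bp of the transcription start site (TSS) was taken as its promoter Pol II level, the Pol II bases inside the gene were counted, and the percentage of the gene body inside H2Bub1 peaks was taken as its covered share. The TSS is that of the gene record and the gene body runs from the TSS to the end of the record.

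The study asked what happens to H2Bub1 and to transcription when the H2B deubiquitylase modules lose their adaptor ATXN7L3. WT mESCs are Atxn7l3+/+ and the knockout (KO) mESCs are Atxn7l3-/-, both of strain DBA/2 x C57BL/6, derived from blastocysts of heterozygous matings. They were grown for some passages on feeder cells and then without them, in serum with leukaemia inhibitory factor and the kinase inhibitors PD0325901 and CH99021. WT mouse embryonic fibroblasts (MEFs), primary Atxn7l3+/+ cells from mid-gestation embryos, were also mapped. The antibodies were an anti-H2Bub1 antibody and one against the C-terminal domain of RPB1, the largest Pol II subunit, with N-ethylmaleimide, which blocks deubiquitylases, in the buffers. Every library stands alone (n = 1), so nothing below has a replicate check and no test between conditions was possible. Intervals are 95% exact binomial ones over genes or peaks, except that those of rank correlations are normal approximations after Fisher's transformation. They cover counting error within a list, not the spread between cultures. The files hold peak calls without read counts, so the depth is unknown. A peak in a bulk culture cannot tell more cells with a mark from more of the mark per cell.

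H2Bub1 is a single ubiquitin placed on the C-terminal tail of H2B by the RNF20/RNF40 ligase with the conjugating enzymes UBE2A and UBE2B. The ligase is brought to chromatin by the PAF complex, which travels with elongating Pol II, so the mark is known for lying over transcribed gene bodies. It is removed by modules in which a ubiquitin protease (USP22, USP27X or USP51) works with ATXN7L3 and ENY2. Pol II itself is known to accumulate just downstream of the TSS, where it pauses before elongation.

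The H2Bub1 list held 40979 peaks with a median width of 957 bp and a median fold enrichment of 2.69, and the Pol II list held 17074 peaks with a median width of 532 bp and a median fold of 3.73. A −log10 q of 3 was reached by 13.8% of the H2Bub1 peaks and 88.4% of the Pol II peaks. The lowest values in these lists were 1.01 and 1.33. The H2Bub1 list holds broad peaks and the Pol II list narrow ones, so neither these shares nor the folds rank the marks. The cells carried the marks of pluripotent cells. Of 15 pluripotent cell markers 9 had Pol II at the promoter and 13 had H2Bub1 in the body, with a median covered share of 75.05%, and Dppa3 and Lin28a had neither mark. Of 12 fibroblast and feeder markers 1 had promoter Pol II and 3 had H2Bub1, with covered shares from 0 to 9.45% and 4.87 kb covered in all, and Col1a2, Col3a1, Postn, Lum, Thy1, Twist1 and Twist2 were among the 9 with none of either mark. All 12 of the fibroblast and feeder markers had a promoter Pol II peak in WT MEFs. Of 10 germ layer markers 1 had promoter Pol II and 3 had H2Bub1 in WT mESCs.

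The start regions of 6 genes are shown first. They were chosen to stand for genes with strong Pol II and full H2Bub1 coverage (Hist1h1c, Rps12 and Klf2), strong Pol II with no H2Bub1 (Hist1h4a, and Hist1h2bg, which lies under a broad Pol II peak with its summit 5307 bp away), and H2Bub1 over 96.0% of the gene with no Pol II peak (Ccdc85c, where H2Bub1 begins 115 bp after the TSS of the record). Each runs from 120 bases before the RefSeq start to base 30 of the transcript in GRCm38.p6, the assembly behind mm10, written 5′ to 3′ on the strand of the gene, with capitals for each CG and for the motifs TATAAA and CCAAT, the latter also where its complement on the other strand reads ATTGG.
Hist1h1c: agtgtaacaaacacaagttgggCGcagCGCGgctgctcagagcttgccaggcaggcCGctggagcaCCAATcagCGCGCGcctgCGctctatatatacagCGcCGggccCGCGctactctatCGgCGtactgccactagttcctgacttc
Hist1h4a: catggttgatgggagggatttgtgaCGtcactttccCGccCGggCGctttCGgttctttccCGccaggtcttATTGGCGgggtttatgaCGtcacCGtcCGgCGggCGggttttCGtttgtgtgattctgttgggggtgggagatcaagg
Hist1h2bg: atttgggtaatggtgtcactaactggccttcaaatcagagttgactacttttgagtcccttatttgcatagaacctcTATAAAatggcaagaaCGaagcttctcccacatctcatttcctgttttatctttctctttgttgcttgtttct
Rps12: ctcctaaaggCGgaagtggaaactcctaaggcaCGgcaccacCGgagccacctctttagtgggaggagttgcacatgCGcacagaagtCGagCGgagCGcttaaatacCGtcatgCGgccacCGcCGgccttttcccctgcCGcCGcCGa
Klf2: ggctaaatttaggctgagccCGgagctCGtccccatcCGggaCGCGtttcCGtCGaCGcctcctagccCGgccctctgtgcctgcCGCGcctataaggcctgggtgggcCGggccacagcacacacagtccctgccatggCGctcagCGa
Ccdc85c: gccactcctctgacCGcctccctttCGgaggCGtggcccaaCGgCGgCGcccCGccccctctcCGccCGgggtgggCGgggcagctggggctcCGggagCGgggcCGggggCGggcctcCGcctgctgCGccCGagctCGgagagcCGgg
These stretches lie at chr13:23738687-23738836 (+ strand) for Hist1h1c, chr13:23761220-23761369 (− strand) for Hist1h4a, chr13:23571280-23571429 (+ strand) for Hist1h2bg, chr10:23787180-23787329 (− strand) for Rps12, chr8:72318942-72319091 (+ strand) for Klf2 and chr12:108275364-108275513 (− strand) for Ccdc85c. The stretch of Ccdc85c holds 19 CG pairs, those of Hist1h1c, Rps12 and Klf2 hold 14 each, that of Hist1h4a holds 13, and that of Hist1h2bg holds 1. TATAAA stood in the Hist1h2bg stretch and in none of the other 5. The reversed CCAAT of Hist1h4a and the CCAAT of Hist1h1c are the single ones in their stretches.

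Pol II stood at the promoter of 7427 genes, 33.9% of all genes, and H2Bub1 in the body of 11761, 53.6% of all genes. With these rates in view, 91.7% of the Pol II promoter genes had H2Bub1 (95% interval 91.0 to 92.3%), against 34.1% of the 14511 other genes (33.4 to 34.9%). The level of these shares rests on the peak threshold. With peaks of a −log10 q of at least 3 they were 52.1% and 6.63%, and counting a gene only where H2Bub1 covered 10% of its body they were 60.3% and 16.6%. Both marks were present on 6809 genes, Pol II without H2Bub1 on 618, H2Bub1 without promoter Pol II on 4952 and neither on 9559. Genes with both marks had a median length of 22828 bp and a median covered share of 21.1% (20.1 to 22.3%), with a median of 3537 covered bases. Genes with H2Bub1 and no promoter Pol II were of like length (median 24302 bp) with a median share of 9.55% (8.997 to 10.0%). Genes with neither mark were shorter, with a median of 10863 bp, and 10.1% of them had a single exon, against 3.22% of genes with both marks.

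Promoter sequence, which was not used to define these classes, differed between them. RefSeq promoters of 300 bases, from 250 before the start to 50 after it, were matched to 14597 genes by symbol and position, 319 of them through an older symbol. The median number of CG pairs was 24 in genes with both marks, 19 in genes with Pol II alone, 17 in genes with H2Bub1 alone and 5 in genes with neither, against 16 in all matched genes. Among genes with both marks the weakest and strongest Pol II quintiles had medians of 23 and 26. TATAAA, read on both strands of the 300 bases, occurred in 11.6% of all matched promoters. It occurred in 5.71% of those with both marks (5.10 to 6.37%), 11.4% of those with Pol II alone (8.67 to 14.7%, and 8.16% with 5.78 to 11.1% after leaving out the histone genes, which overlaps the genes with both marks), 6.87% with H2Bub1 alone and 19.5% with neither. CCAAT on either strand was spread more evenly, in 39.2% of all matched promoters, 38.5% with both marks, 44.4% with Pol II alone and 40.1% with neither. TATAAA and CCAAT can share at most 1 base, and a match is a run of letters and not a tested site.

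The marks occupied different positions around the TSS. The share of Pol II promoter genes inside a Pol II peak was largest 80 bp downstream of the TSS, at 81.6%, and positions from 20 to 130 bp lay within the interval of that maximum. The share inside an H2Bub1 peak was 43.3% at the TSS, 51.8% at 60 bp and largest at 360 bp, at 71.4%, with positions from 290 to 440 bp within the interval of the maximum. The chromatin was sheared to 200 to 700 bp, so peak edges do not resolve steps finer than that for a single gene.

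**Figure D1:**
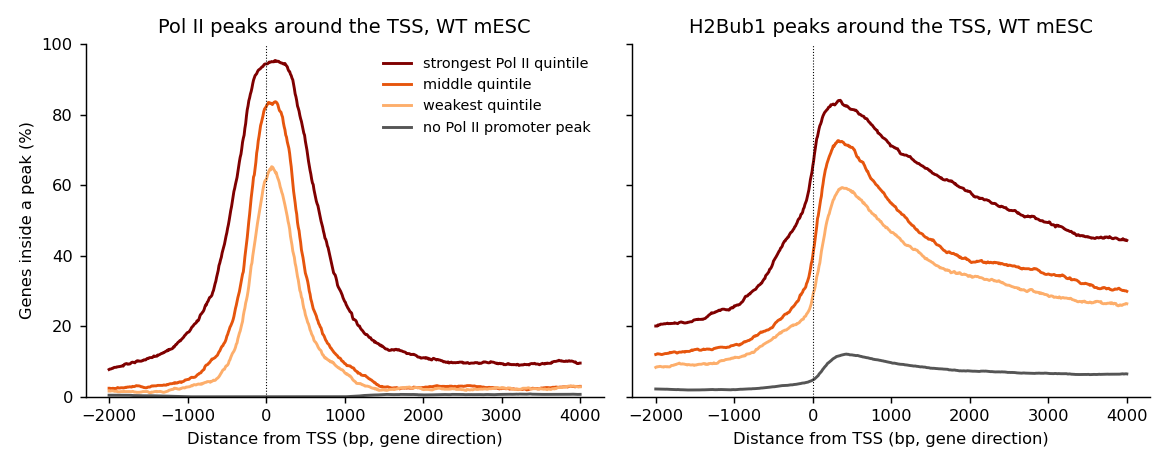
Percentage of genes inside a Pol II peak (left) and inside an H2Bub1 peak (right) at each distance from the TSS in 10 bp steps, in the direction of transcription, for the strongest, middle and weakest quintiles of promoter Pol II fold and for genes without a promoter Pol II peak. Pol II is centred near the TSS in every quintile, while H2Bub1 climbs across the TSS, is largest 320 to 370 bp downstream in the 3 quintiles drawn, and stays at 44.3% of genes at 4000 bp in the strongest quintile.

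Past their maxima the marks parted. At 1000 bp downstream 13.2% of the genes were inside a Pol II peak and 55.8% inside an H2Bub1 peak, and at 4000 bp the values were 4.15% and 32.9%. Upstream, H2Bub1 covered 30.7% of the genes at 250 bp and 16.2% at 1000 bp before the TSS. In the strongest quintile of Pol II fold H2Bub1 reached further back, covering 47.4% at 250 bp upstream against 20.4% in the weakest. The position of the H2Bub1 maximum hardly moved with Pol II strength, from 370 bp in the weakest quintile to 350 bp in the strongest, while its height went from 59.3% to 84.1%. Genes without a promoter Pol II peak had the same form at a low level, with 4.76% at the TSS and a maximum of 12.1% at 430 bp.

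Measured from the Pol II summit, the base of highest Pol II signal in the peak, the picture was the same. The median promoter summit lay 74 bp downstream of the TSS (69 to 78 bp, 7427 genes). H2Bub1 covered 27.9% of the positions 500 bp upstream of the summit, 59.5% of the summits themselves, 67.2% of the positions 100 bp downstream and 67.0% at 500 bp downstream. In the strongest quintile 79.4% of the summits were inside an H2Bub1 peak (77.3 to 81.4%), against 44.1% in the weakest (41.5 to 46.6%). Counted by peak and not by gene, 58.0% of 6494 distinct promoter summits were inside H2Bub1 (56.8 to 59.2%), and 38.6% at the stricter peak threshold. Pol II peaks with their summit in a gene body away from a promoter gave nearly the same share, 58.5% of 5710 (57.2 to 59.8%), and those outside genes gave 25.8% of 4627 (24.6 to 27.1%).

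By bases, Pol II peaks covered 12.5 Mb and H2Bub1 peaks 71.6 Mb, and the 6.59 Mb they shared were 52.8% of the Pol II bases and 9.20% of the H2Bub1 bases. Most H2Bub1 peaks lay away from any Pol II peak, as 20.7% of them touched one (20.3 to 21.1%). That share was 9.03% in the narrowest quintile of H2Bub1 peaks (233 to 434 bp) and 44.4% in the widest (2268 to 66956 bp). Wide H2Bub1 peaks also lay in genes more often, 96.9% against 84.6% of the narrowest.

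The marks differed along the rest of the gene. Over 6355 Pol II promoter genes of at least 5000 bp, H2Bub1 covered 42.9% of the genes at the TSS, 36.7% at 10% of the body, 22.7% at its middle, 20.03% at 90% and 15.2% at the gene end, and 14.1% at a point 10% of the gene length beyond it. Pol II covered 80.7% at the TSS, 1.196% at the middle and 5.18% at the gene end, with a further high of 10.2% at the point 10% of the gene length past the end, where Pol II is known to slow before it is released. In the strongest quintile that downstream Pol II high was 15.3% and in the weakest 7.78%. H2Bub1 had no high at that place in either quintile, with 16.5% and 15.0%. Exons were covered more densely than introns. In the Pol II promoter genes 25.6% of the exon bases were inside H2Bub1 peaks against 11.8% of the intron bases, and in the strongest quintile the values were 33.4% and 19.1%. Distance from the TSS was not matched in this comparison.

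Genes were split by promoter Pol II fold into 5 equal parts, with medians of 3.10, 3.72, 4.39, 5.37 and 7.72. H2Bub1 was called in 88.0% of the weakest quintile (86.2 to 89.6%), then in 89.7%, 92.3% and 93.6%, and in 94.8% of the strongest (93.6 to 95.9%). The intervals of the weakest and strongest quintiles did not overlap. The covered share was not graded in the same even way. Its median was 14.9% in the weakest quintile, 11.3% in the second, 14.4% in the third, 18.1% in the fourth and 34.0% in the strongest (30.4 to 37.1%). At the stricter peak threshold the medians of the weakest and strongest quintiles were 0% and 8.13%, and in genes at least 5000 bp from another gene that of the weakest was 8.10%.

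**Figure D2:**
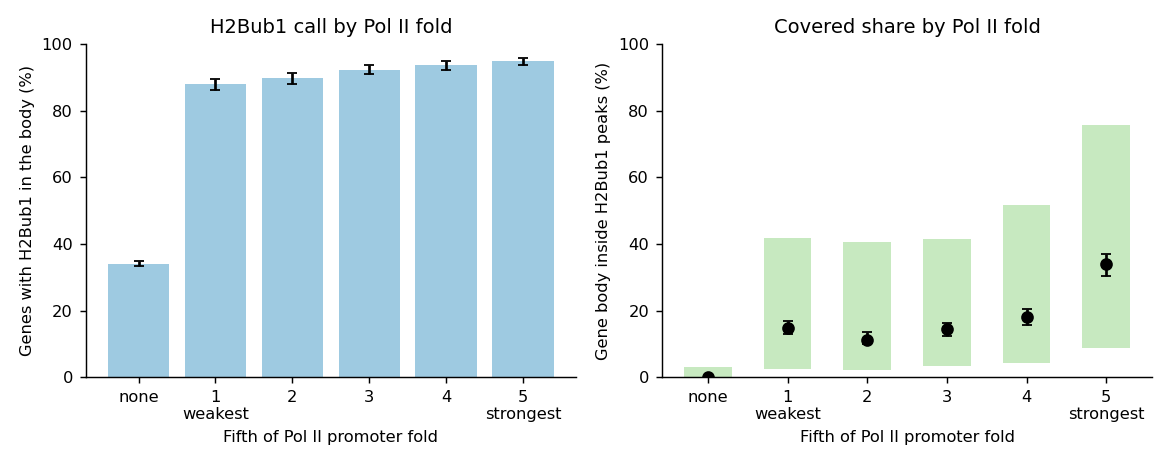
Left, percentage of genes with an H2Bub1 peak in the body for genes without a promoter Pol II peak and for each quintile of promoter Pol II fold, bars with 95% exact binomial intervals. Right, covered share of the gene body, the box from the lower to the upper quartile and the point the median with its 95% interval. The step between genes without promoter Pol II (34.1%) and the weakest quintile (88.0%) is far larger than that from the weakest to the strongest (94.8%), while the covered share is highest in the strongest quintile (median 34.0%).

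Over the 7427 genes, promoter Pol II fold and covered share had a Spearman rank correlation of 0.18 (0.31 at the stricter peak threshold), a description over genes that share 2 libraries and that are not independent of each other. The relation was closer near the start. Over the first 2000 bp of 7110 genes of at least that length the correlation was 0.28, and the median covered share of that stretch was 39.6% in the weakest quintile and 95.6% in the strongest. The mean fold of the H2Bub1 peaks in the body was related to Pol II fold with a rank correlation of 0.40 in the 6809 genes with both marks, its median going from 2.77 in the weakest quintile to 3.34 in the strongest. An H2Bub1 peak reached into the first 1000 bp of the body in 71.9% of the weakest quintile and 91.5% of the strongest, and where it did, it ended at a median of 1426 bp and 2327 bp from the TSS. The strongest quintile was also the shortest, with a median length of 16541 bp against 21239 bp in the weakest and 25863 bp in the third.

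The covered share fell with gene length. Over the 7427 genes the rank correlation was −0.50 between gene length and covered share, which shrank to −0.10 with peaks of a −log10 q of at least 3, and 0.24 between length and the number of covered bases. The median share was 65.1% in genes of 2 to 5 kb (61.3 to 69.4%), 43.9% at 5 to 10 kb, 27.9% at 10 to 20 kb, 13.5% at 20 to 50 kb, 6.12% at 50 to 100 kb and 0.76% above 200 kb. The covered length behind these shares hardly varied above 5 kb, at 3.19 kb, 3.93 kb, 4.27 kb and 4.37 kb in the bins from 5 to 100 kb and 2.65 kb above 200 kb. Whether a gene had any H2Bub1 also varied little, from 91.6% to 94.0% of the genes in the bins from 5 to 200 kb, with 68.6% of the 102 genes up to 1 kb (58.7 to 77.5%). Over the first 2000 bp the relation with length was close to 0, at a rank correlation of −0.07. The H2Bub1 domain that reached into the first 1000 bp of the body was cut at the gene end. It ended at a median of 2.23 kb in genes of 5 to 10 kb and at 1.52 kb in genes of 50 to 100 kb.

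**Figure D3:**
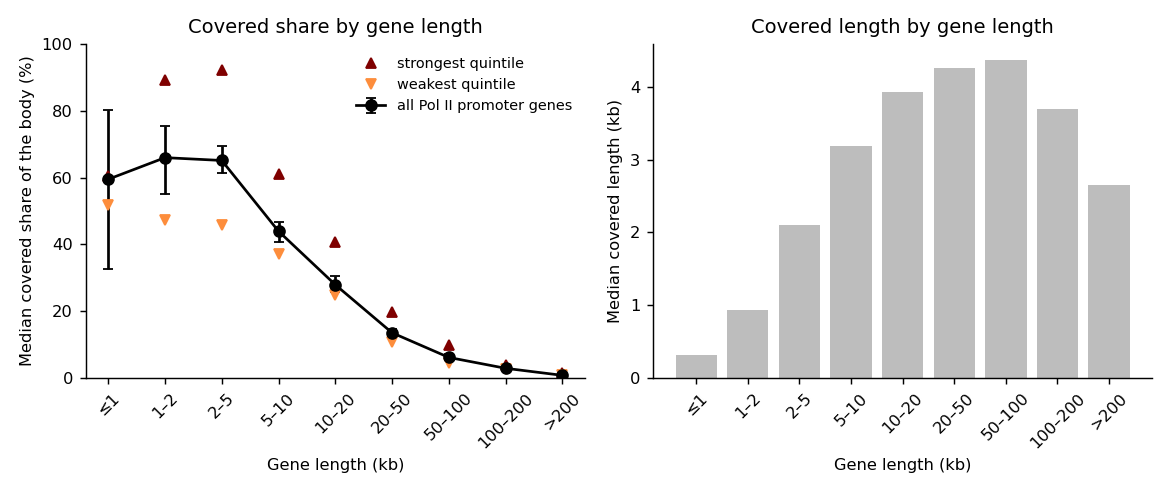
Left, median covered share of the gene body by gene length in Pol II promoter genes, with 95% intervals, and the medians in the strongest and weakest quintiles of Pol II fold (triangles). Right, median covered length in the same genes. The share goes from 65.1% at 2 to 5 kb to 0.76% above 200 kb while the covered length stays between 2.65 and 4.37 kb in every bin above 5 kb, and the strongest quintile lies above the weakest in every bin.

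Strength and length were then read together. Within genes of 2 to 5 kb the median share was 45.8% in the weakest quintile of Pol II fold (151 genes) and 92.1% in the strongest (223 genes). The pair was 37.0% and 61.1% at 5 to 10 kb, 24.8% and 40.8% at 10 to 20 kb, 10.8% and 19.7% at 20 to 50 kb, and 4.48% and 9.86% at 50 to 100 kb. Within these bins the rank correlation of Pol II fold and share went from 0.35 at 2 to 5 kb to 0.11 at 50 to 100 kb, and above 200 kb its interval held 0. In genes without promoter Pol II the H2Bub1 call rose with length over a wider range than in those with it. It went from 3.41% of the 616 genes up to 1 kb (2.12 to 5.16%) to 47.9% of the 902 genes of 100 to 200 kb (44.6 to 51.2%). It was 36.2% in the 735 genes above 200 kb (32.7 to 39.8%). The call takes 1 bp of overlap, which a longer body meets more easily, and the median covered share of these genes was 0% in each bin.

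Some long genes departed from the short domain. Genes over 100 kb with large shares included Usp7, a ubiquitin protease, with 91.2% of 103 kb and a promoter Pol II fold of 4.02, Ctbp2, a transcriptional corepressor, with 85.6% of 137 kb, Itpk1, an inositol phosphate kinase, with 78.4% of 136 kb, and Cmip with 74.7% of 202 kb and a fold of 3.24. None of these 4 was in the strongest quintile of Pol II fold. By covered bases the leading genes after a pair of records that span megabases were Gli2, a Hedgehog transcription factor, with 159 kb of 219 kb, and Tead1, a Hippo pathway factor, with 154 kb of 227 kb, at folds of 4.16 and 4.56. The pair left aside were Gm20388, a record of 4435 kb that runs over other genes, and Fgfr2, a fibroblast growth factor receptor whose record spans 2961 kb, with 973 kb and 244 kb covered.

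Pol II inside the gene went with broader H2Bub1. Of the Pol II promoter genes 2512 also had Pol II bases more than 1000 bp into the body and 4915 had none. H2Bub1 was called in 97.0% of the first (96.3 to 97.6%) and 89.0% of the second (88.0 to 89.8%), and the median covered share was 38.4% (35.9 to 40.7%) against 10.5% (9.66 to 11.3%). At the stricter peak threshold these medians were 4.41% and 0%. The gap was present at matched length. It was 80.0% against 52.9% at 2 to 5 kb, 47.5% against 18.2% at 10 to 20 kb, 28.5% against 8.47% at 20 to 50 kb and 13.4% against 4.14% at 50 to 100 kb, and none of these intervals overlapped. Median promoter folds of the sets were 4.62 and 4.30. Among the 2512 genes the Pol II bases per kb of body and the covered share had a rank correlation of 0.55. The length of the body is the divisor in both measures. Genes without promoter Pol II repeated the pattern, with H2Bub1 in 88.9% of the 1885 that had Pol II in the body (87.4 to 90.3%) and 25.9% of the 12626 that did not (25.2 to 26.7%).

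Single genes with much Pol II in the body did not all carry broad H2Bub1. Zmynd8, a chromatin reader, had 12.2 kb of Pol II beyond the first 1000 bp and 64.8% of its body covered, and Gse1 had 11.98 kb of Pol II and 33.9% covered, both without a peak at the TSS of the gene record. The agouti gene a, whose record runs over 260 kb, had 15.8 kb and 15.7% covered. Slc25a12, a mitochondrial aspartate-glutamate carrier, had 12.01 kb of Pol II, about as much as Zmynd8, with 3.42% of its 96.7 kb covered.

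The 4952 genes with H2Bub1 and no Pol II at the TSS of the record were of several kinds. In 730 (14.7%) a Pol II peak stood within 1000 bp of another annotated TSS of the gene, and in 947 (19.1%) Pol II was in the body but at no annotated TSS. The other 3275 (66.1%, 64.8 to 67.5%) had no Pol II peak at either. Their median covered share was 7.42% (6.92 to 8.05%), against 18.0% and 14.6% in the first kinds, and their H2Bub1 peaks had a median fold of 2.65. In 224 of the 3275 a Pol II peak lay within 5000 bp of the TSS. Another protein-coding gene lay closer than 5000 bp to 57.4% of them, against 52.0% of all genes.

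Among genes with no Pol II peak at the promoter or in the body, the 10 with the most H2Bub1 covered bases are given here. Their domain that reached into the first 1000 bp ended between 0.79 kb from the TSS in Ttc39b and 44.3 kb in Ccdc85c, and Mical3 had none. Myh9, the heavy chain of non-muscle myosin IIA at chr15:77760587-77842175, had 71.6 kb or 87.7% of its body inside H2Bub1 peaks, from 179 bp after the TSS, and its nearest Pol II peak was 70.2 kb from the TSS. Ccdc85c at chr12:108203602-108275425 had 96.0% of 71.8 kb covered, with the nearest Pol II peak 2.06 kb away. Tmem184b had 96.0% of 42.9 kb, Epn2, an endocytic adaptor, 82.3% of 62.4 kb, and Plxna1, a semaphorin receptor, 80.9% of 46.3 kb. The remaining 5 of the 10 with the most covered bases were Mical3 with 27.2%, Myo18a with 50.7%, Pald1 with 64.0%, Ttc39b with 35.9% and Gcnt2 with 36.8%. H2Bub1 folds in the 10 lay between 2.59 for Myo18a and 3.71 for Plxna1. Mical3 was the exception in position, with its first H2Bub1 base 20818 bp after the TSS, against at most 369 bp in the other 9.

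The 618 genes with promoter Pol II and no H2Bub1 had a median Pol II fold of 3.94, against 4.44 in genes with both marks, and 7.77% of them had a single exon. In 168 of the 618 (27.2%, 23.7 to 30.9%) the strongest promoter peak was also that of another protein-coding gene, close to the 24.3% in genes with both marks (23.3 to 25.4%). That other gene had H2Bub1 in 126 of the 168 cases (67.7 to 81.3%), a lower share than the 91.7% of all Pol II promoter genes. In 112 of the 618 H2Bub1 lay within 1000 bp of the TSS but outside the body, a count not made for other genes. The 10 strongest of the 618 were led by histone genes. These were Hist1h4a and Hist1h3a at 35.8, Hist1h2ae, Hist1h2bg, Hist1h2bf and Hist1h2ad at 22.9, Hist1h2bk at 22.4, Hist1h4c at 17.7 and Hist1h2bm at 16.9. Gtsf1l, with a fold of 17.6 from a peak whose summit lay 1697 bp downstream, was the exception among the 10. Of the 618 genes 583 had the summit within 1000 bp of the TSS. After leaving out the histone genes, a step added once their values had been seen, the next were Mtfr2 with 13.7, Gm49403 with 12.4 (summit 4813 bp downstream), Gm9958 with 11.8, Praf2 with 9.29, the neighbours Arhgap4 and Naa10 with 8.98 at 1 shared peak, Fam161a with 8.92, Scfd1 with 8.69 and Isg20 with 8.31 (summit at −1017 bp). Praf2, Arhgap4 and Naa10 lie on the X chromosome.

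On the X chromosome a smaller share of genes was called for either mark, and the cause was not tested. Promoter Pol II stood at 9.60% of its 948 genes (7.80 to 11.7%), against 35.3% of 20807 autosomal genes, and H2Bub1 was in 17.7% (15.3 to 20.3%) against 55.7%. Of the 91 X genes with Pol II 73.6% had H2Bub1 (63.3 to 82.3%), below the 91.9% of the 7336 autosomal ones, and their median covered share was 2.54% against 17.6%. The median Pol II folds were close, 4.44 on the X chromosome and 4.39 on the autosomes.

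Gene classes, read against the 33.9% of all genes with promoter Pol II and the 53.6% with H2Bub1, spanned the whole range. Counts and medians are given for them, with intervals in places and no test of a class, and each list was chosen with these data already known. Of 84 cytosolic ribosomal protein genes 78 had promoter Pol II and all 78 had H2Bub1, with a median Pol II fold of 7.87 and a median covered share of 100%. Rpl41 had a fold of 17.9, from a peak with its summit 1554 bp downstream of the TSS and past the end of the gene, and 100% covered, Rps12 had 16.1 and 100%, and Rps20 16.3 and 64.3%. The 6 without promoter Pol II included Rpl10l and Rpl3l, the tissue-restricted paralogs, which had no H2Bub1 either, while Rps10 was fully covered and had Pol II in its body. These genes are short, with a median of 3329 bp. Mitochondrial ribosomal protein genes had less of each, with Pol II at 54 of 78, H2Bub1 in 70 and a median share of 21.5%. Mrpl40 (fold 7.29), Mrpl16 and Mrpl32 had Pol II and no H2Bub1.

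**Figure D4:**
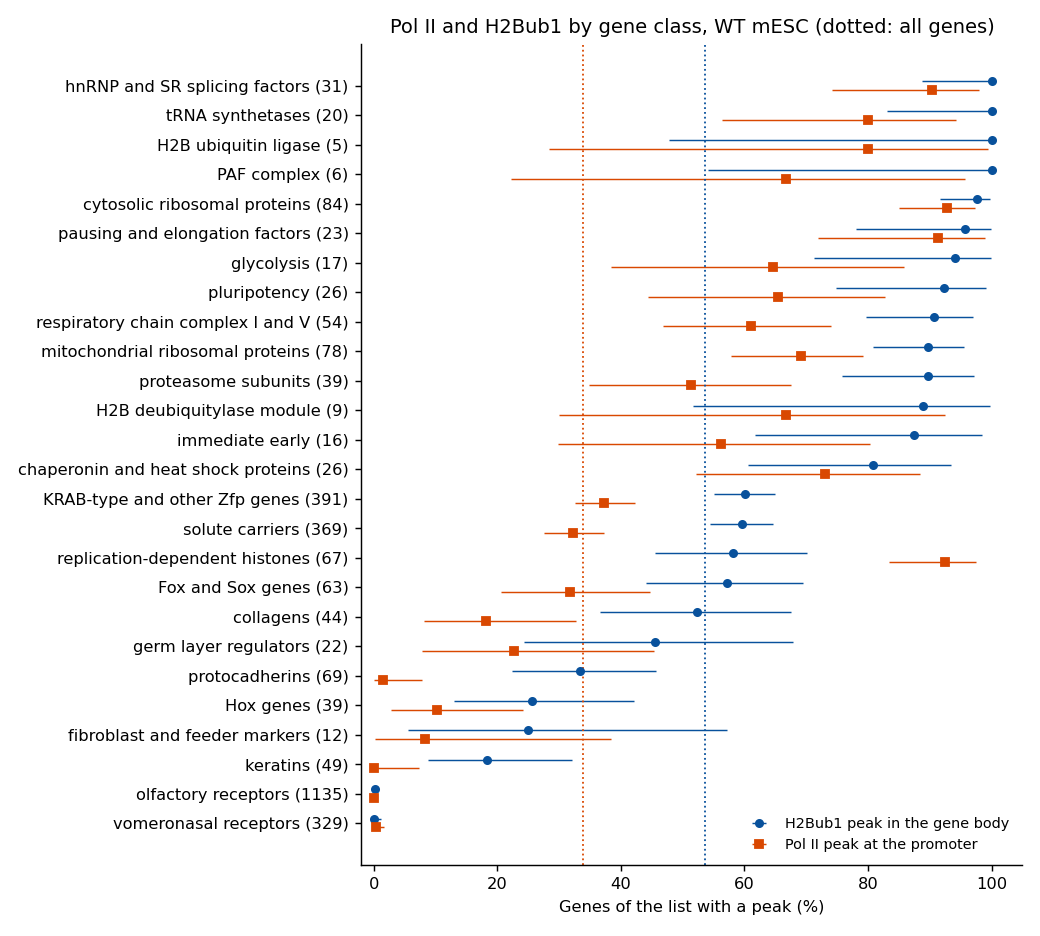
Percentage of the genes of each class with a Pol II peak within 1000 bp of the TSS (squares) and with an H2Bub1 peak in the body (circles), with 95% exact binomial intervals, the number of genes in parentheses and the values over all genes as dotted lines. Replication-dependent histone genes are the class in which Pol II (62 of 67) was far more frequent than H2Bub1 (39 of 67), while olfactory and vomeronasal receptors have almost none of either.

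Genes of RNA processing had the highest median H2Bub1 fold of the 26 classes. All 31 hnRNP and SR splicing factor genes had H2Bub1 and 28 had promoter Pol II, with a median Pol II fold of 8.43, a median H2Bub1 fold of 5.15 against 2.94 in all genes with both marks, and a median share of 39.5%. Srsf2 had a Pol II fold of 16.7, an H2Bub1 fold of 9.45 and 91.8% covered. Hnrnpab had 16.4, 5.26 and 100%, and Srsf7 13.6, 8.63 and 54.9%. All 20 tRNA synthetase genes had H2Bub1, 16 with promoter Pol II, and their members differed widely, such as Aars with 85.1% of its body covered and Dars with 1.15% at a Pol II fold of 6.86. Of 26 chaperonin and heat shock genes 19 had Pol II and 21 had H2Bub1. Hspa8, the constitutive HSC70 gene, had a fold of 13.2 and 96.7% covered, and Hsp90ab1 9.50 and 100%.

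Metabolic genes were mostly marked. Glycolysis genes had Pol II at 11 of 17 promoters (Aldoa has a pair of gene records) and H2Bub1 in 16, with Gapdh at a Pol II fold of 11.6 and Pkm at 7.00, both fully covered. Genes of respiratory chain complexes I and V had Pol II at 33 of 54 and H2Bub1 in 49, with Ndufa13 at 11.5 and 100% covered. Proteasome genes had Pol II at 20 of 39 and H2Bub1 in 35 with a median share of 17.8%. Psmd7 had 5.92 and 64.7%, and Psmc6 5.57 and 3.42%, which are close in Pol II and far apart in coverage. Solute carriers, a large transporter class, were near the rates of all genes, with 119 and 220 of 369.

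Pluripotency genes combined moderate Pol II with broad H2Bub1. Of 26 genes 17 had promoter Pol II, and all 17 had H2Bub1, with a median Pol II fold of 5.01 and a median covered share of 83.8% against 17.4% in all Pol II promoter genes. These 17 genes were short, with a median of 6556 bp, and Pol II promoter genes of 5 to 10 kb had a median share of 43.9%. Set beside the median of its own length bin, the share was higher in 15 of the 17 and lower in Dppa5a and Nr0b1. Klf2 had a Pol II fold of 18.4, an H2Bub1 fold of 8.18 and 100% covered. Sox2 had 7.33, 7.51 and 100%, Klf4 7.05, 7.00 and 84.8%, and Tbx3 5.98, 6.68 and 100%. Pou5f1, which encodes OCT4, had a Pol II fold of 5.01 and 87.7% covered, and Nanog 4.64 and 81.3%, from peaks with summits at −2092 and −1002 bp from the TSS. Esrrb, Tet1 and Fgf4 had no Pol II at the TSS of the record but Pol II in the body, with 32.8%, 52.0% and 30.7% covered from 3401, 4130 and 2557 bp onward. Lefty1, Tcl1, Dppa4 and Dnmt3l had H2Bub1 with no Pol II peak in either place, at 92.6%, 68.1%, 23.0% and 1.32%.

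Immediate early genes, which respond within minutes to growth signals, had Pol II at 9 of 16 and H2Bub1 in 14. Jund had a Pol II fold of 10.98 and Ier2 7.43, both fully covered, Myc 5.30 with 87.6%, and Fos 4.31 with 43.7%. Of the 23 pausing and elongation factor genes 21 had both marks. Hexim1, an inhibitor of P-TEFb, had a fold of 11.5 and 100% covered, and Tcea1 8.18 and 6.35%.

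Genes of the H2B ubiquitylation pathway were read against the 91.7% of all Pol II promoter genes with H2Bub1. Of the 5 ligase genes all had H2Bub1 and 4 had promoter Pol II. Rnf40 had no peak at the TSS of the record but 78.9% of its body covered, Rnf20 had a Pol II fold of 4.73 and 2.42% covered, Ube2b 4.73 and 39.5%, and Ube2a 6.70 and 12.2%. The PAF complex genes all had H2Bub1, from Paf1 with 39.0% to Cdc73 with 2.06% at a Pol II fold of 7.29. Among those with promoter Pol II the share was above the median of its length bin in 1 of 4 ligase genes, 0 of 4 PAF complex genes and 3 of 6 deubiquitylase module genes. Of 9 genes of the deubiquitylase modules 8 had H2Bub1. Atxn7l3, the gene targeted in the KO cells, was fully covered over 7.33 kb at a Pol II fold of 3.61. The construct placed loxP sites around its exons 2 to 12, which lie at chr11:102291898-102295059. H2Bub1 peaks of the KO mESCs covered 13.0% of that span and 100% of the other 4170 bp of the gene, against 100% of each in WT mESCs, and Pol II peaks covered 11.9% of the span in KO and 20.7% in WT mESCs. The promoter peak of the KO mESCs had a fold of 3.71. Usp22 had the lowest Pol II fold of the module genes with a peak, 2.42, and 81.2% covered. Usp27x had 15.3% covered with no promoter Pol II, and Usp51 had neither mark.

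Developmental and tissue-restricted classes ranged from the rates of all genes down to almost none. Hox genes had Pol II at 4 of 39 and H2Bub1 in 10, with Hoxb9 at a fold of 12.04 and 37.5% covered. Fox and Sox genes were near the rates of all genes, with 20 and 36 of 63, and so were collagens for H2Bub1, with 8 and 23 of 44. Germ layer regulators had 5 and 10 of 22. Protocadherins had promoter Pol II at 1 of 69 and H2Bub1 in 23, and keratins at 0 of 49 and in 9. Of 1135 olfactory receptor genes none had promoter Pol II (an exact binomial upper limit of 0.324%) and 3 had H2Bub1, which were Olfr1349, Olfr94 and Olfr718-ps1. Of 329 vomeronasal receptor genes Vmn1r4 had Pol II, at a fold of 3.19, and none had H2Bub1. Zinc-finger genes named Zfp were near the rates of all genes, with 146 and 235 of 391, and Zfp143, a promoter-binding factor, led them in Pol II with a fold of 20.8 and 6.81% covered.

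Replication-dependent histone genes set strong Pol II apart from H2Bub1. Promoter Pol II stood at 62 of 67, with a median fold of 17.2 against 4.39 over all Pol II promoter genes, and 57 of them were in the strongest quintile. H2Bub1 was in the body of 38 of the 62 (61.3%, 48.1 to 73.4%). At the stricter peak threshold it was in 24.2% of them and in 52.1% of all Pol II promoter genes. The 5 highest Pol II folds of the genome belonged to this class, at 3 distinct peaks. Hist1h1c, a linker histone gene at chr13:23738808-23740367, had 44.9 and was fully covered. A single peak of 35.8 served Hist1h4a, Hist1h3a and Hist1h1a, of which Hist1h1a was fully covered and the other two had no H2Bub1, and Hist1h1b had 35.2 with 98.7% covered. A peak of 8358 bp with a fold of 22.9 spanned Hist1h2ae, Hist1h2bg, Hist1h2bf and Hist1h2ad, and none of the 4 genes had H2Bub1. Its summit was between 2322 and 5483 bp from their TSSs, so the fold is that of the cluster and not of any 1 of these promoters. All 3 genes under the 5815 bp peak of 28.1 (Hist1h4i, Hist1h2bj and Hist1h2ag) were covered by 75.4% to 80.1%. By histone type H2Bub1 was on 5 of 5 H1 genes, 9 of 16 H2A, 8 of 16 H2B, 8 of 12 H3 and 8 of 13 H4 genes with Pol II.

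These genes are short and lie in clusters, so they were set beside other short genes. The 62 had a median length of 537 bp, and 41 of them shared a promoter peak, leaving 38 distinct peaks. Those peaks were wide, with a median over the 62 genes of 2979 bp against 671 bp over all Pol II promoter genes. The summit itself was within 1000 bp of the TSS at 45 of the 62, against 96.2% of all Pol II promoter genes. Taking those 45 alone, a choice made after seeing the data, left the H2Bub1 share at 62.2% (28 genes, 46.5 to 76.2%) and the median Pol II fold at 16.7. Of 56 other Pol II promoter genes up to 1000 bp 82.1% had H2Bub1 (69.6 to 91.1%, which overlaps the 48.1 to 73.4% of the histone genes), at a median Pol II fold of 4.52. In the strongest quintile alone the values were 10 of 11 other genes up to 1000 bp (90.9%, 58.7 to 99.8%) and 36 of 57 histone genes (63.2%, 49.3 to 75.6%), and these intervals overlapped too. Other genes up to 5000 bp in that quintile, longer at a median of 2978 bp, had H2Bub1 in 267 of 283. Their interval (94.3%, 91.0 to 96.7%) lay above that of the histone genes. Of 199 other single-exon genes up to 5000 bp 87.4% had H2Bub1 (82.0 to 91.7%), and of 814 multi-exon ones 88.6% (86.2 to 90.7%). H2Bub1 anywhere within 1000 bp of the TSS was found at 41 of the 62 histone genes, which leaves 21 without it there as well. The whole class is read from multigene copies, and how the authors' alignment placed reads from near-identical genes could shift either mark between them.

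Promoters of the histone genes also differed from the rest. TATAAA was in the 300 bases of 17 of 34 matched histone genes with both marks and 17 of 23 with Pol II alone, against 11.6% of all matched promoters, and CCAAT in 82.4% and 87.0% against 39.2%. Within the class the intervals for TATAAA overlapped, 32.4 to 67.6% and 51.6 to 89.8%. Cytosolic ribosomal protein promoters, at a median Pol II fold of 7.87, held TATAAA in 5 of 58. In the window from 40 to 16 bases before the start, where a TATA box is usually placed, the order within the class was the other way, with TATAAA on the strand of the gene in 8 of 34 with both marks (10.7 to 41.2%) and 3 of 23 with Pol II alone (2.78 to 33.6%), against 3.01% of all matched promoters.

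The same measures in KO mESCs and WT MEFs are set out next, as single libraries with other numbers of peaks, with no test of a difference. In KO mESCs, where the Pol II promoter call was made in 31.3% and the H2Bub1 call in 60.8% of all genes, H2Bub1 peaks covered 151 Mb, and 97.8% of 6876 Pol II promoter genes had H2Bub1 (97.4 to 98.2%) against 43.9% of the others. In WT MEFs, with 54.1% and 30.4% of all genes called, the values were 52.4% of 11860 genes (51.5 to 53.3%) and 4.49%. The rank correlation of Pol II fold and covered share was 0.18 in WT mESCs. The KO library pair gave 0.07, and the MEF pair gave 0.46. For length and covered share, in the same order of sets, it was −0.50, −0.55 and 0.04. The H2Bub1 call went from 16.7% in the weakest to 75.9% in the strongest quintile of WT MEFs, and was between 96.1% and 99.1% in all quintiles of KO mESCs.

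**Figure D5:**
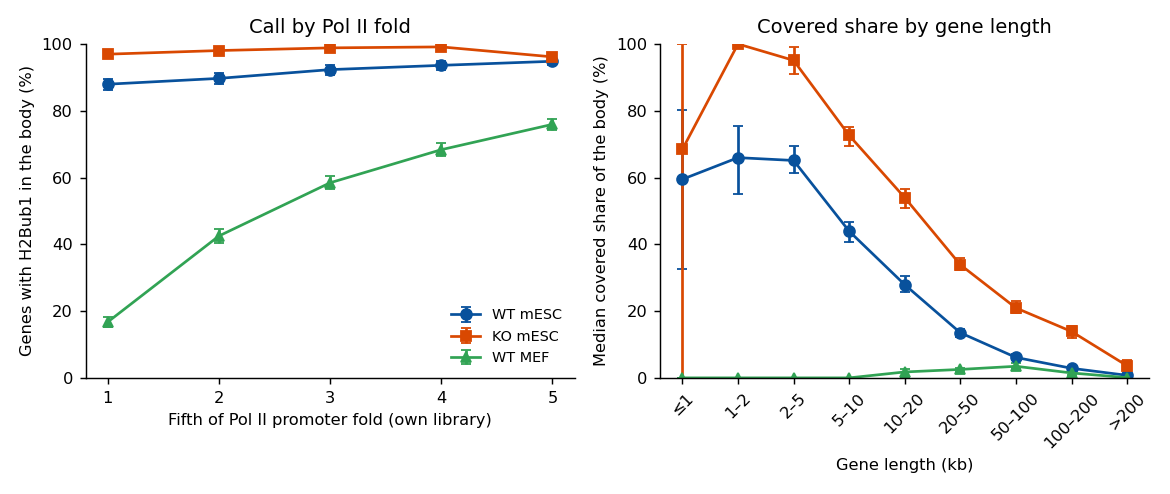
Left, percentage of genes with H2Bub1 in the body for each quintile of promoter Pol II fold, the quintiles made within each pair of libraries. Right, median covered share by gene length in Pol II promoter genes. Points carry 95% intervals. WT mESCs (circles) and KO mESCs (squares) have their largest shares below 5 kb, while WT MEFs (triangles) stay at or below 3.47% at every length and climb from 16.7% to 75.9% with Pol II strength.

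Taken over the genes that carried both marks in WT mESCs, 78.3% carried both in KO mESCs, and in WT MEFs 62.0% did. Over all 21938 genes, both marks stood on 6726 with the KO library pair and on 6213 with the MEF pair. Of the 6809 genes with both marks in WT mESCs, promoter Pol II was called on 5381 with the KO pair and 6472 with the MEF pair. H2Bub1 was called on 6698 and 4252 of these 6809 genes, in the same order of pairs. Of the 618 WT mESC genes with Pol II and no H2Bub1, 463 (74.9%) had H2Bub1 in KO mESCs and 112 (18.1%) in WT MEFs. Gtsf1l was among the first, with 0% covered in WT mESCs, 100% in KO mESCs, and Pol II folds of 17.6 and 6.14. The histone genes had the opposite order. Promoter Pol II stood at 62 of the 67 in WT mESCs, with H2Bub1 on 38 of them. The KO mESCs had Pol II at 60 with H2Bub1 on 9, and the WT MEFs had Pol II at 60 with H2Bub1 on 6. Hist1h1c had Pol II folds of 44.9, 22.9 and 23.7 and covered shares of 100%, 0% and 0%. Cytosolic ribosomal protein genes carried the mark in each set, on 78 of 78, 76 of 76 and 79 of 80, with median shares of 100%, 100% and 76.2%. Myh9 had no promoter Pol II in either mESC library, with 87.7% and 92.6% covered, and a Pol II fold of 21.2 with 55.8% covered in WT MEFs. Sox2, Nanog and Pou5f1 had neither mark in WT MEFs.

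Genes the study names as examples fell across these classes. Klhl11 and its neighbour Acly, the ATP citrate lyase gene, had Pol II folds of 7.16 and 7.19 with 57.0% and 44.3% covered. Bud13 had 7.98 with 7.90% covered, and its neighbour Zpr1 had no peak at the TSS of the record and 33.4% covered. Cmip had 3.24 with 74.7%. Pgk1, a glycolysis gene on the X chromosome at chrX:106187100-106203699, had no Pol II peak nearer than 160 kb and 6.60% of its body covered, from 5947 bp after the TSS.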

How the data were processed

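Peak lists of WT mESCs, and for comparison of KO mESCs and WT MEFs, were used as deposited. Per the submitters' processing notes the tools were bcl2fastq 2.17.1.14, Bowtie 1.0.0 and MACS2 2.1.1.20160309, on mm10. The authors deposited broad peaks for H2Bub1 and narrow peaks for Pol II, 1 library each. In them the fold is a ratio over background as the authors' peak caller gave it, p- and q-values are deposited as −log10, and other deposited values are the summit offsets of narrow peaks. Lists of MEF_KO and the Ser2P libraries were not used here. GENCODE M21 gene records were intersected with the peaks (1 bp minimum) in Python 3.11.15 with numpy 2.4.6, scipy 1.17.1 and pandas 2.3.3. Depth per library is unknown, so precision is given as exact binomial intervals over genes, or normal approximations for rank correlations. The routines were tested on simulated peaks. Alternatives tried were peaks with −log10 q of 3 or more, isolated genes, autosomes, a narrower promoter, a 10% call, the first 2000 bp and, added after seeing the data, Pol II summits within 1000 bp. The members and lists were chosen with earlier results of these data known. Genes named are the study's examples, the pathway, pluripotency and class genes with the highest Pol II, and the leading genes by Pol II fold, covered bases, Pol II in the body, covered share above 100 kb, and of each mark without the other. Some of the genes this rule takes are not reported here.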

Additional observations from a re-analysis of the deposited data

How the results depend on the processing

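Of 57 recomputed values over 11 results and 7 settings, 27 stayed within the interval of the reported value and 30 moved. None changed sign, which only the rank correlations and the distance from the TSS could have done. Requiring a −log10 q of at least 3, which kept 13.8% of the H2Bub1 peaks, moved most values. H2Bub1 was then in 52.1% of Pol II promoter genes and 6.63% of the others, the rank correlation with Pol II fold was 0.31 and with length −0.10, the median shares were 8.13% and 0% in the strongest and weakest quintile and 4.41% and 0% with and without Pol II in the body, 38.6% of promoter summits were inside H2Bub1, and 24.2% of histone genes with Pol II had it. In genes at least 5000 bp from another gene the call was 92.6% and 23.1%, the correlation with fold 0.24, the quintiles 29.96% and 8.10%, the shares with and without Pol II in the body 29.5% and 8.67%, and the histone share 100% of 3 genes. Over the first 2000 bp these were 85.1% and 20.6%, 0.28, 95.1% and 39.5%, and 80.8% and 44.5%, with Pol II quintiles made again among genes of that length. A call at 10% of the body gave 60.3% and 16.6%. On autosomes 36.0% of genes without promoter Pol II had H2Bub1, and with the narrower promoter (100 bp upstream to 300 bp downstream) 36.3%, where the share with Pol II in the body was 40.8%. The histone recomputations, and the setting with the Pol II summit within 1000 bp (91.8% of Pol II promoter genes, correlation 0.17), were added after seeing the data. The cause of these moves beyond the removal of peaks or genes was not tested. The H2Bub1 maximum stayed between 330 and 360 bp downstream of the TSS in the 4 settings where it was recomputed. No paired analysis was possible because every group is 1 library. With 1 library per mark and unknown depth, a missing peak cannot be read as a missing mark.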
